A study of Mus musculus with 4 samples.

Results

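The 78 genes described here encode the mouse matrix metalloproteinases (Mmp, 23 genes), the ADAM proteases (32 genes), the related secreted ADAMTS proteases (19 genes) and their tissue inhibitors (Timp, 4 genes). They are all genes whose array name begins with Mmp, Adam or Timp followed by a number, with Adamts genes included and Adamtsl genes left out. They make up 78 of the 31829 gene names on the array and carry 105 of its 39429 probes. The cells were epithelial cells of adult C3H/HeN mouse skin, selected by flow cytometry for CD49f (the alpha 6 integrin) together with CD34. The 15p cells had gone through 15 successive cultures of 10 days with the growth factor Wnt-3a on collagen type I, with a new sort for both proteins at the end of each culture. The 0p cells are labelled as the sorted cells without passage number, and the labels list Wnt-3a as a treatment of both RNAs. Each of the 4 two-colour arrays held 15p RNA in one dye and 0p RNA in the other, and each of 2 biological replicates had an array in each dye orientation. Nothing in the labels ties the replicates to different animals, so errors and p-values describe the spread between these 2 samples.

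Matrix metalloproteinases are zinc proteases that are made as inactive precursors and that cut collagens, laminins and other proteins of the extracellular matrix. ADAMs are mostly membrane proteins, and the catalytically active ones release growth factors and receptors from the cell surface. ADAMTS proteases are secreted and cut proteoglycans, procollagens and other matrix proteins, and the TIMPs block the active site of many of these enzymes. In skin the families take part in wound repair, in the attachment of basal cells to their basement membrane and in the growth of the hair follicle.

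The proximal promoters of the Mmp genes of the chromosome 9 cluster are shown because detected and undetected genes share a motif there. The array probes for the 10 cluster genes lie within chr9:7282762-7697700 (build mm9, positions of the files), and 3 of the 10 (Mmp13, Mmp1b and Mmp10) were well above background on all 4 arrays. The motif TGANTCA, a looser form of TGACTCA or TGAGTCA, the recognition sequence of the AP-1 transcription factors, was searched in windows from 250 bases before to 50 after each RefSeq start (build GRCm38.p6), and it reads in the same form on both strands. It was present in 8 of the 10 cluster genes, at 35 to 95 bases before the start. Of all 27025 genes with a promoter sequence 8.97% held it in any of their windows, and of all 32851 windows 7.81% did. Of the 38 other Mmp, Adam and Timp genes with a promoter sequence 4 did (10.5%). The strict form was present in 7 of the 10 cluster genes and in 5.2% of all windows, a share counted by window and not by gene. The match of Mmp20 was the looser TGAATCA. The 100 bases that precede the start are shown for the 3 detected genes and for 2 cluster genes, Mmp3 and Mmp1a, that were above background on no array. All are printed 5′ to 3′ on the gene's own strand, and capitals mark the motif. The positions are chr9:7272414-7272513 (plus strand) for Mmp13, chr9:7388027-7388126 (minus strand) for Mmp1b and chr9:7502242-7502341 (plus strand) for Mmp10. Those of Mmp3 and Mmp1a are chr9:7445722-7445821 and chr9:7464041-7464140, both on the plus strand.
Mmp13: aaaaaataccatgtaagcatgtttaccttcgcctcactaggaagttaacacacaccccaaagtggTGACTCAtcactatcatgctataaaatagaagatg
Mmp1b: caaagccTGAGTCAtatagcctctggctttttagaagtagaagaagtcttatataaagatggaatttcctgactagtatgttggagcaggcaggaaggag
Mmp10: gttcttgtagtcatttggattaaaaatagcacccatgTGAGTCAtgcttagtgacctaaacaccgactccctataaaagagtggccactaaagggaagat
Mmp3: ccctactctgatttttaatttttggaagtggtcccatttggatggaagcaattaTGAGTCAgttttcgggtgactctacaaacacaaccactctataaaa
Mmp1a: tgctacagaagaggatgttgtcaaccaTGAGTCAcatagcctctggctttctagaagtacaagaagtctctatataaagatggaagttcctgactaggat

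The first base of the motif stood 35 bases before the start in Mmp13, 93 in Mmp1b, 63 in Mmp10, 46 in Mmp3 and 73 in Mmp1a. It was also found before Mmp12 (44), Mmp20 (95) and Mmp7 (63), and no match was found in the windows of Mmp8 and Mmp27. Of the 8 genes with a match, 3 were detected on all arrays and 5 were not, so presence of these letters did not separate detected from undetected genes. The letters TATAAA, the core of the TATA box, were present in the windows of 8 of the 10 cluster genes. Of all windows, counted by window and not by gene, 8.32% held them. Among the 28 pairs of the 8 stretches, Mmp1b and Mmp1a shared the longest identical run, of 15 bases. These 2 genes encode close relatives of the human interstitial collagenase, and the Mmp1b probe was above background on all arrays in both RNAs while the Mmp1a probe was above it on none.

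**Figure D1:**
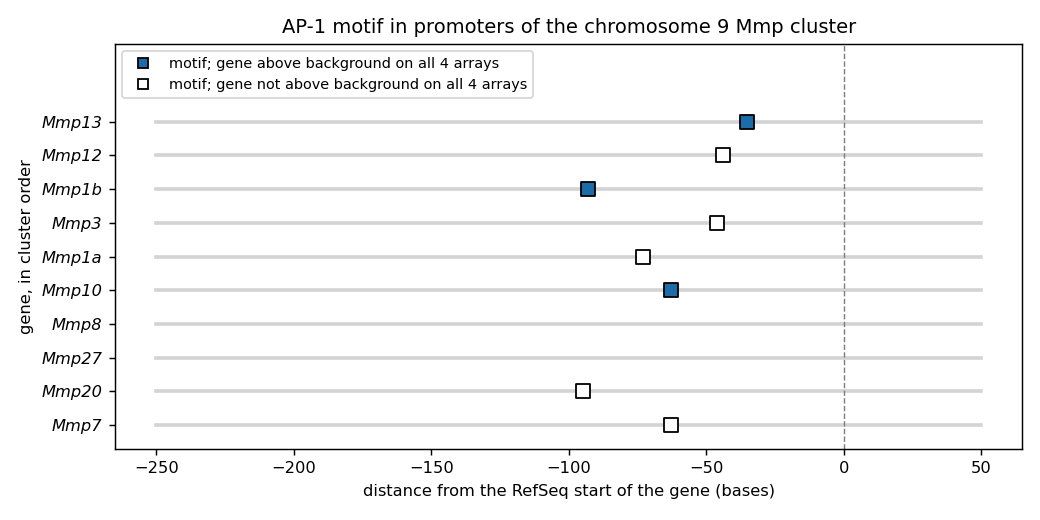
Distance in bases of the TGANTCA motif from the RefSeq start (x axis, dashed line at 0) for the 10 Mmp genes of the chromosome 9 cluster (y axis, in cluster order). Grey lines are the searched windows, filled squares are the motif in the 3 genes above background on all 4 arrays, and open squares the motif in 5 other genes. Mmp8 and Mmp27 had no match.

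Of the 78 genes, 26 passed the detection filter (well above background in 15p RNA, or in 0p RNA, on every one of the 4 arrays) and were tested, 25 were above it on some arrays and 27 on none. A gene counted as above background on an array if any of its probes was, while the filter had to be passed by a single probe. A smaller share of them was detected than of all genes: 33.3% against 54.5% were above background on all arrays of an RNA, and 34.6% against 27.8% were above it on no array. The tested genes were 8 of the 23 Mmp genes, 11 of 32 Adam genes, 4 of 19 Adamts genes and 3 of 4 Timp genes. All but 1 of them were above background on all 4 arrays in both RNAs. The exception was Adam6b, which was above it on 4 arrays in 15p RNA and on 3 in 0p RNA. Each tested gene had a probe that passed the filter, but for Adam12, Adam32 and Adamts8 another probe was above background on no array. The other Mmp24 probe was above it on 1 array in 15p RNA and on 0 in 0p RNA.

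The detected Mmp genes belong to the collagenase, stromelysin and membrane-bound groups. In the collagenase group, a grouping by relationship and not by shown activity, Mmp13 and Mmp1b were detected. Mmp1a and Mmp8 of that group were above background on no array. Both gelatinases, Mmp2 and Mmp9, which cut basement membrane collagen, were above background on no array. Among the stromelysins and matrilysin, Mmp10 and Mmp11 were detected, and Mmp3 and Mmp7 were above background on no array. Of 6 membrane-bound Mmp genes 4 were detected (Mmp14, Mmp15, Mmp17 and Mmp24), and Mmp16 and Mmp25 were above background on no array. None of 7 other Mmp genes was tested, with Mmp19 and Mmp20 (the enamel protease enamelysin) on no array. Mmp28 (epilysin, known from keratinocytes) was above background on 3 arrays in each RNA by either of its 2 probes. Taken alone, its probes were above it on 3 and 1 arrays in 15p RNA and on 2 each in 0p RNA.

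Among the Adam genes, most of the tested ones were proteases with a known role outside the testis. Of 9 proteases known from somatic tissues 7 were tested (Adam8, Adam9, Adam10, Adam12, Adam15, Adam17 and Adam33), Adam28 passed background on 1 array in each RNA, and Adam19 on none. Leaving aside the testis group below, 3 members without a catalytic site were counted. Of these, Adam11 was tested, Adam22 passed background on 1 array in each RNA and Adam23 on none. Of 20 members known mainly from testis and epididymis, 3 were tested (Adam6b, Adam26b and Adam32), 9 were above background on some arrays and 8 on none. As markers of male germ cells, Prm1, Prm2 and Tnp1 were above background on all arrays of an RNA, with mean log2 ratios of -0.059 to 0.011, while Ddx4, Acrv1 and Zpbp were above it on none. What these probes bound was not tested. Between Mmp, Adam and Timp genes the most alike probes, for Adam25 and Adam39, shared 32 of 35 aligned bases, and 0 of the 105 probes had a sequence that is also on the array under another gene name.

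Of 6 proteoglycan-cleaving Adamts genes, Adamts1, Adamts4 and Adamts8 were tested, Adamts5 passed background on 1 array in each RNA, and Adamts9 and Adamts15 on none. None of the 3 procollagen proteases was tested: Adamts2 and Adamts14 passed background on 1 array in each RNA and Adamts3 on none. Adamts7, known to cut cartilage oligomeric matrix protein, was the 1 tested gene of 10 others, and Adamts13, Adamts18, Adamts19 and Adamts20 were above background on no array. Timp1, Timp2 and Timp3 were tested, and Timp4 was above background on 1 array in 15p RNA and on 2 in 0p RNA.

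The 25 genes above background on some arrays were mostly at the limit of detection. The largest group, of 12 genes, passed background on 1 array in each RNA: Adam1a, Adam4, Adam18, Adam22, Adam26a, Adam28, Adam39, Adamts2, Adamts5, Adamts14, Adamts16 and Mmp21. Another 6 were above it on 0 arrays in 15p RNA and on 1 in 0p RNA (Adam2, Adamts10, Adamts12, Mmp12, Mmp23 and Mmp27). Adamts17 was above it on 2 arrays in each RNA, and Adamts6 on 2 in 15p RNA and 1 in 0p RNA. Adam5 was above it on 2 arrays in 15p RNA and 3 in 0p RNA, Adam25 on 0 in 15p RNA and 2 in 0p RNA, and Adam21 on 0 in 15p RNA and 3 in 0p RNA. In all, 1 of the 25 was above background on more arrays in 15p RNA and 10 (40%) on more arrays in 0p RNA. Over all 5625 genes of this kind, 16% were above it on more arrays in 15p RNA and 37.9% on more in 0p RNA, so the share with more 0p arrays was near that of all genes.

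**Figure D2:**
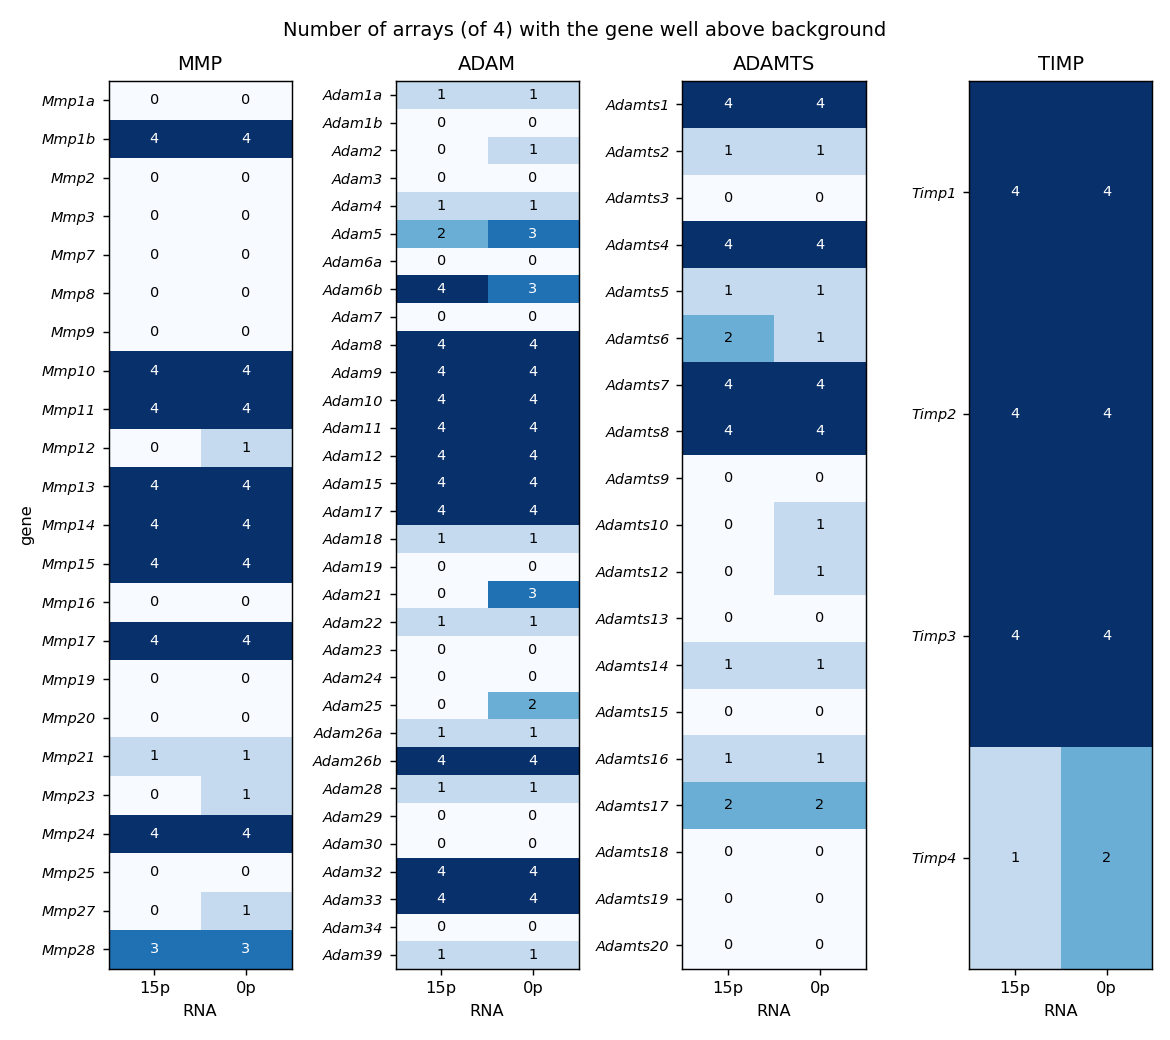
Number of arrays, of 4, on which each of the 78 genes was well above background by any of its probes, with 15p RNA in the left and 0p RNA in the right column of each panel. The 26 tested genes are those with 4 in at least one column, and 27 genes have 0 in both.

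Detection also depended on the array. The arrays are given throughout in the order replicate 1 with 15p in Cy5, replicate 1 with 15p in Cy3, replicate 2 with 15p in Cy5 and replicate 2 with 15p in Cy3. Of the 78 genes, 28, 27, 30 and 41 were above background in 15p RNA and 29, 32, 30 and 46 in 0p RNA. Of all spots other than controls, 59.3%, 55.5%, 58.6% and 65.1% were above background in 15p RNA. In 0p RNA 57.0%, 59.8%, 58.3% and 68.3% were, counted by spot and not by gene. The last array detected the most in both RNAs, among these genes and among all spots. For Mmp9 and Adamts19, whose probes are spotted 10 times on each array, 0 of 10 spots were above background on any array in either RNA. The Mmp9 spots had a mean intensity of 51.8 ± 6.4 in 15p RNA and 51.7 ± 2.2 in 0p RNA (SD over 10 spots) on the first array, where the negative control spots had medians of 47.7 in 15p RNA and 47.5 in 0p RNA. This describes spots of 1 array and not replicates.

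All 9 basal keratinocyte markers (Krt5, Krt14, Krt15, Trp63, Itga6, Itgb4, Col17a1, Cdh3 and Cdh1) were above background on all arrays of an RNA. Of 6 bulge stem cell markers, Sox9 and Nfatc1 were, Lhx2 and Lgr5 were above background on no array, and Cd34, a protein used for the sort, was not above it on all arrays of an RNA. Of 9 fibroblast markers Col3a1 and Twist2 were tested, and Pdgfra, Pdgfrb, Dcn, Lum and Dpt were on no array. Of 8 macrophage markers 5 were tested (Csf1r, Cd68, Cd14, Fcer1g and Itgam), and Lyz2 was on no array. Of 7 neutrophil markers Elane and Camp were tested, and Ly6g and Mpo were on no array. Of 5 endothelial markers Pecam1 and Kdr were tested, and Cdh5, Tek and Emcn were on no array. Of 6 melanocyte markers Tyr and Mlana were tested, and Tyrp1 and Kit were on no array. Mean log2 ratios ran from -0.026 to 0.20 in the keratinocyte list and from -0.38 to -0.053 for the tested bulge markers. For the tested fibroblast, macrophage, neutrophil, endothelial and melanocyte markers they lay between -0.077 and 0.088. No marker of these lists passed the test between 15p and 0p RNA, and their part in the values below was not tested.

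The comparison of 15p with 0p cells asks how transcript levels stood after 15 passages. No difference was called between the RNAs with all 4 arrays: 0 of the 26 tested genes passed limma's test at an adjusted p of 0.05, as did 0% of all 17374 tested genes, and the lowest adjusted p among the 26 was 0.749. At an unadjusted p under 0.05 there were 2 of 26, Adam33 and Adamts1, against 6.3% of all tested genes. The mean log2 ratios of 15p over 0p ran from -0.18 to 0.14, with 14 above 0 and 12 below. Of all 17374 tested genes, 8928 were above 0 and 8446 below. The median was 0.0044 for the 26 genes against 0.0025 over all tested genes. The 95% confidence intervals of the 26 genes together reached from -0.34 to 0.27. These intervals rest on 2 replicates and do not cover the difference between arrays of a pair, so they are no limit on the true differences. Without the first array, the fit of the other 3 called 18% of all tested genes and 4 of the 26, with the lowest adjusted p at 2.84e-07: Timp2 (-0.38), Adamts1 (-0.28) and Timp3 (-0.18) lower and Mmp10 (0.19) higher in 15p RNA. In that fit the estimated prior degrees of freedom were infinite, so all genes were given a common spread. Its residual came only from the arrays with 15p in Cy3. The third array (replicate 2, 15p in Cy5), alone in its orientation, was fitted exactly, so its error entered no p-value. Without any other single array 0 of the 26 were called. The direction of each ratio rests on the labelled dyes. Had the dyes not been exchanged, the averages given here would cancel a difference between the RNAs and the ratios of Cy5 over Cy3 would hold it; of these, 0 of the 26 passed limma's test, with the lowest adjusted p at 0.069 (Mmp11), against 3.8% of all tested genes. In bulk RNA, fewer cells that express a gene and less RNA per cell cannot be told apart.

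**Figure D3:**
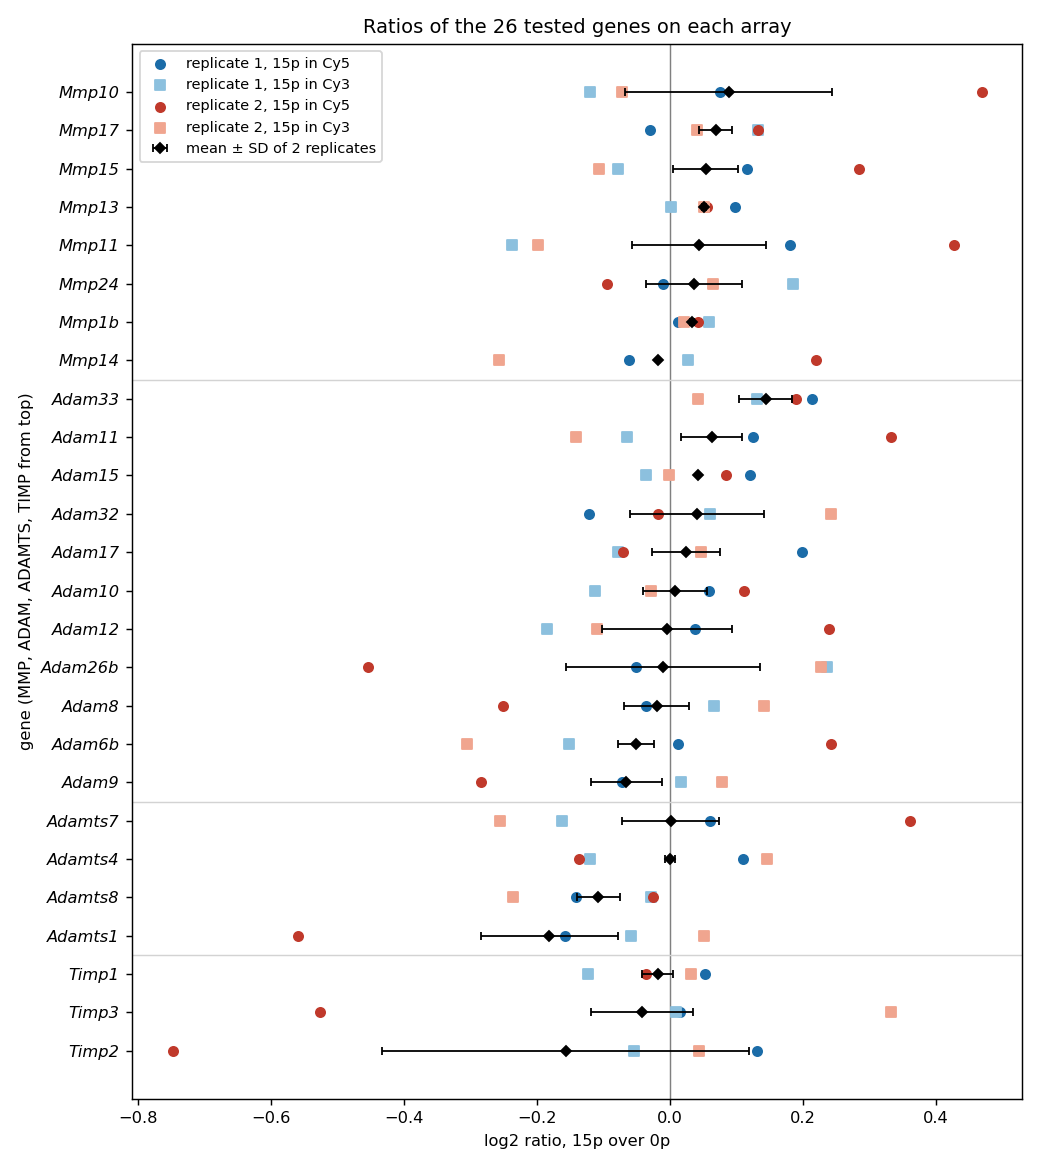
Log2 ratio of 15p over 0p RNA (x axis) for the 26 tested genes (y axis, grouped by family), with coloured points for the 4 arrays and black diamonds with bars for the mean ± SD of 2 replicates. Means lie between -0.18 and 0.14, and single arrays reach -0.75 (Timp2) and 0.47 (Mmp10), both on the third array (replicate 2, 15p in Cy5).

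Of the 8 tested Mmp genes 7 had a mean ratio above 0, against 8928 of all 17374 tested genes. Their median log2 ratio was 0.048, and none passed the test. In 4 of the 8 the sign of the ratio followed the dye on all arrays. Mmp13, a collagenase, had log2 signals of 6.79, 6.76, 6.91 and 7.01 in 15p RNA and 6.69, 6.76, 6.85 and 6.96 in 0p RNA. Its ratios were 0.098, 0.0022, 0.056 and 0.052, with a mean of 0.052 ± 0.0031 (SD, n = 2), and the signals of the 2 RNAs overlapped. With the software's processed signals its mean was 0.12. Mmp1b, the other detected gene of the collagenase group, had log2 signals of 7.63, 7.55, 7.68 and 7.70 in 15p RNA and 7.62, 7.50, 7.64 and 7.68 in 0p RNA. Its mean ratio was 0.033 ± 0.0026 (SD, n = 2). Mmp13 and Mmp1b were above 0 on all 4 arrays by amounts that did not pass limma's test (adjusted p = 0.848 and 0.9).

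Mmp10 (stromelysin 2), an enzyme known from keratinocytes at wound edges, had log2 signals of 8.58, 8.33, 8.83 and 8.46 in 15p RNA and 8.50, 8.45, 8.36 and 8.53 in 0p RNA (probe at chr9:7510011-7510070, mm9). The ratios were 0.076, -0.12, 0.47 and -0.072, with a mean of 0.088 ± 0.16 (SD, n = 2, adjusted p = 0.804). Its 15p signal exceeded the 0p signal on the arrays with 15p in Cy5 and was below it on both dye swaps. Without the third array the ratio was -0.010. Mmp11 (stromelysin 3), which is activated inside the cell by furin, averaged 0.043 ± 0.10 (SD, n = 2), and its second probe 0.055 ± 0.082. The ratios were 0.18, -0.24, 0.43 and -0.20 by the first probe and 0.10, -0.11, 0.33 and -0.11 by the second, and both split by dye.

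Mmp14 (MT1-MMP), the membrane-bound enzyme that activates the precursor of the gelatinase Mmp2, had ratios of -0.061, 0.027, 0.22 and -0.26. Its mean of -0.018 ± 0.0013 (SD, n = 2) was the 1 negative mean among the Mmp genes, and the small SD hides a wide spread between the arrays of replicate 2. Mmp15, a second transmembrane enzyme, had ratios of 0.12, -0.078, 0.28 and -0.11, with a mean of 0.054 ± 0.049 (SD, n = 2). It was above 0 with 15p in Cy5 and below 0 with 15p in Cy3. Mmp17, which is held in the membrane by a lipid anchor, had ratios of -0.030, 0.13, 0.13 and 0.041, with a mean of 0.069 ± 0.025 (SD, n = 2). The software's processed signals gave it a mean of 0.17. Mmp24 averaged 0.036 ± 0.072 (SD, n = 2), and its replicates had opposite signs.

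Of the 11 tested Adam genes 6 had a mean ratio above 0 and 5 below, with a median log2 ratio of 0.0074, and none passed the test. Adam33, a protease known from mesenchymal cells of the airway, had the highest mean ratio of the 26 tested genes, each taken by its brightest kept probe. Its brighter probe (chr2:130876845-130876904, mm9) gave log2 signals of 7.23, 7.13, 7.20 and 7.08 in 15p RNA and 7.02, 7.00, 7.01 and 7.04 in 0p RNA. Here the 15p signals lay above the 0p signals without overlap. The signals come from dye-swapped pairs of 2 replicates and are not independent samples. The share of all tested genes with such a separation was not counted. The ratios were 0.21, 0.13, 0.19 and 0.042. The mean was 0.14 ± 0.040 (SD, n = 2) with a 95% interval of 0.02 to 0.27, an unadjusted limma p of 0.0248 and an adjusted p of 0.749. The second probe had ratios of 0.043, 0.32, 0.25 and -0.094, with a mean of 0.13 ± 0.073 (SD, n = 2), and was below 0 on the last array. With the software's processed signals the mean ratio of Adam33 was larger, at 0.25.

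Adam10 and Adam17, the main sheddases of Notch receptors and of growth factors of the EGF family, stayed close to 0. Adam10 had ratios of 0.059, -0.11, 0.11 and -0.028, with a mean of 0.0074 ± 0.048 (SD, n = 2). Adam17 had ratios of 0.20, -0.078, -0.070 and 0.047, with a mean of 0.025 ± 0.051 (SD, n = 2). A second Adam17 probe, shifted by 8 bases and sharing 52 bases with the first, had ratios of -0.12, 0.12, -0.084 and 0.089, with a mean of 0.0022 ± 0.00058. The 2 Adam17 probes nevertheless differed by 0.32 on the first array, which shows how far nearly the same sequence varied on single arrays.

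Adam9, a sheddase also known to bind integrins, had ratios of -0.073, 0.017, -0.28 and 0.078, with a mean of -0.066 ± 0.053 (SD, n = 2). Adam8, known from leukocytes, had ratios of -0.036, 0.067, -0.25 and 0.14 and a mean of -0.020 ± 0.049 (SD, n = 2). Both were below 0 with 15p in Cy5 and above 0 with 15p in Cy3. Adam12, known from muscle and growing tissue, had ratios of 0.038, -0.19, 0.24 and -0.11, with a mean of -0.0042 ± 0.098 (SD, n = 2), and its second kept probe 0.072, 0.10, -0.11 and 0.12, with a mean of 0.046 ± 0.057. Adam15, which carries an integrin-binding motif, had ratios of 0.12, -0.036, 0.084 and -0.0017, with a mean of 0.042 ± 0.00084 (SD, n = 2). Adam15 and the brighter Adam12 probe split by dye the other way, above 0 with 15p in Cy5.

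Adam11, which has no catalytic site and is known from neurons, had ratios of 0.13, -0.065, 0.33 and -0.14, with a mean of 0.063 ± 0.046 (SD, n = 2). Its second kept probe had ratios of -0.088, 0.14, 0.15 and 0.21, with a mean of 0.10 ± 0.11 (SD, n = 2). The 2 Adam11 probes lay on opposite sides of 0 on every array but the third. Among the detected genes known from testis, Adam6b had ratios of 0.012, -0.15, 0.24 and -0.31, with a mean of -0.051 ± 0.027 (SD, n = 2). Adam26b averaged -0.010 ± 0.15 and Adam32 averaged 0.041 ± 0.10 (SD, n = 2 each). All 4 genes had arrays on both sides of 0.

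Of the 4 tested Adamts genes 3 had a mean ratio below 0, with a median log2 ratio of -0.054. Adamts1, a protease that cuts the proteoglycans versican and aggrecan, had the lowest mean ratio of the 26 tested genes. Its probe (chr16:85795044-85795103, mm9) gave log2 signals of 11.03, 10.99, 11.04 and 11.45 in 15p RNA and 11.19, 11.05, 11.60 and 11.40 in 0p RNA. The ratios were -0.16, -0.059, -0.56 and 0.051, so 15p RNA was lower on 3 of 4 arrays and the ranges overlapped. The mean was -0.18 ± 0.10 (SD, n = 2) with a 95% interval of -0.31 to -0.05, an unadjusted limma p of 0.0115 and an adjusted p of 0.749. Without the third array the ratio was -0.081.

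Adamts8, which also cuts aggrecan, had ratios of -0.14, -0.028, -0.025 and -0.24 by its kept probe. The mean was -0.11 ± 0.032 (SD, n = 2, adjusted p = 0.749), below 0 on all arrays. Its other probe was above background on no array and had ratios of -0.14, 0.016, -0.41 and 0.20. The log2 signals of Adamts8 were 6.51, 6.67, 6.68 and 6.74 in 15p RNA and 6.66, 6.70, 6.71 and 6.97 in 0p RNA. With a normexp offset of 16 its mean was -0.16, and with the processed signals in place of normexp it was -0.41. No other alternative, a left-out array or replicate included, moved a gene of the families farther. The size of the Adamts8 ratio thus depended on the background correction, and the cause was not tested. Adamts4 (aggrecanase 1) had ratios of 0.11, -0.12, -0.14 and 0.15, with a mean of -0.00027 ± 0.0075 (SD, n = 2). Adamts7 averaged 0.0013 ± 0.073 (SD, n = 2). For Adamts4 and Adamts7 the arrays lay on both sides of 0 within each replicate.

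The 3 tested inhibitors had mean ratios below 0, with a median log2 ratio of -0.042, and none passed the test. Timp2, which blocks Mmp enzymes and at the cell surface also takes part in activating Mmp2 with Mmp14, had log2 signals of 14.00, 13.86, 13.55 and 14.11 in 15p RNA by its brighter probe (chr11:118163146-118163205, mm9). In 0p RNA the signals were 13.87, 13.91, 14.30 and 14.06. The third array alone had a large difference, and the ratios were 0.13, -0.054, -0.75 and 0.044. The mean was -0.16 ± 0.28 (SD, n = 2, adjusted p = 0.75), with 0.039 in replicate 1 and -0.35 in replicate 2. Without the third array the ratio was 0.063.

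The other Timp2 probe (chr11:118171964-118178741, mm9, a listed span longer than the 60 bases of the probe) had log2 signals of 11.84, 11.94, 11.80 and 11.85 in 15p RNA and 11.88, 11.89, 11.76 and 11.88 in 0p RNA. Its ratios were -0.039, 0.057, 0.043 and -0.032, with a mean of 0.0070 ± 0.0023 (SD, n = 2). On the third array the 2 Timp2 probes differed by 0.79, the largest such difference among the 6 genes with 2 kept probes. The mean over both probes was -0.075.

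Timp3, which is bound to the matrix and also inhibits Adam17, had log2 signals of 7.51, 7.58, 6.68 and 7.49 in 15p RNA and 7.49, 7.57, 7.21 and 7.16 in 0p RNA. The ratios were 0.015, 0.0087, -0.53 and 0.33, with a mean of -0.042 ± 0.077 (SD, n = 2). The arrays of replicate 1 lay near 0 and those of replicate 2 on opposite sides of it. With the processed signals the mean of Timp3 was -0.19. Timp1, an inhibitor known to be induced in inflammation and repair, had ratios of 0.053, -0.12, -0.036 and 0.032, with a mean of -0.018 ± 0.023 (SD, n = 2), and under median centring in place of loess its mean was 0.042.

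**Figure D4:**
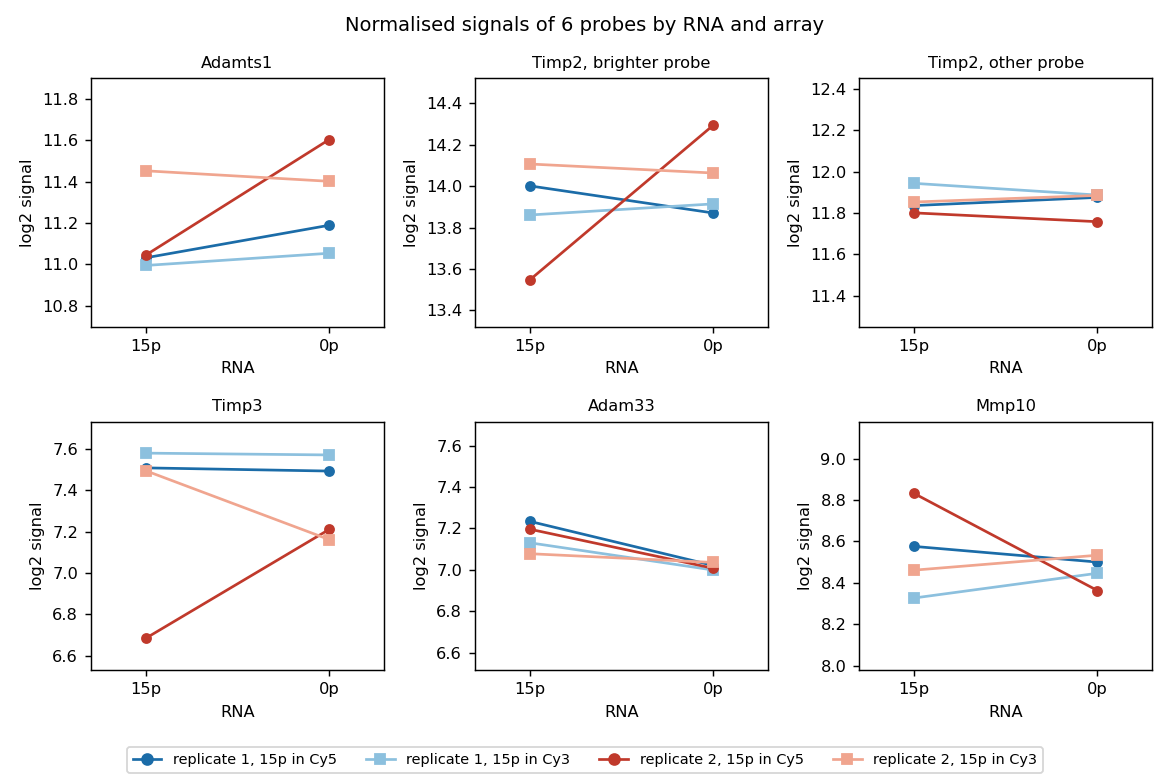
Normalised log2 signal (y axes, each spanning the same number of log2 units) in 15p RNA (left) and 0p RNA (right) for 6 probes, with a line for each of the 4 arrays. The brighter Timp2 probe is far lower in 15p RNA only on the third array (replicate 2, 15p in Cy5), where the other Timp2 probe shows a ratio of 0.043, and the Adam33 lines all fall to the right.

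Many ratios changed sign with the dye. In 14 of the 26 genes (53.8%) the ratio of 15p over 0p had one sign with 15p in Cy5 and the opposite sign with 15p in Cy3, on both arrays each, against 32.3% of all tested genes. These included 9 of the 11 Adam genes. The count uses the brightest probe of a gene, and the other kept probes of Adam11 and Adam12 did not split by dye. For Adam17 the other kept probe split by dye and the brightest did not. Over the 26 genes the ratios of the 2 arrays of replicate 1 had a Pearson correlation of -0.35 and those of replicate 2 of -0.67, where the points share their arrays and dyes. The means of replicates 1 and 2 correlated at 0.17. Over all 17374 tested genes the same correlations were -0.55, -0.40 and 0.089, so the opposite signs within pairs were found across the arrays. In the direction Cy5 over Cy3 the largest mean ratios were 0.26 for Mmp11, 0.21 for Adamts7 and 0.18 for Mmp10, and the lowest were -0.24 for Adam26b and -0.21 for Timp3. Whether the dyes were exchanged as labelled was not tested.

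Same-sign ratios were less common. On all 4 arrays 4 of 26 genes (15.4%) had the same sign, Adam33, Mmp13 and Mmp1b above 0 and Adamts8 below, against 6.78% of all tested genes. This count also uses the brightest kept probe, and the other probes of Adam33 and Adamts8 had ratios on both sides of 0. The 2 replicate means had the same sign in 13 of 26 genes (50%), against 57% of all. The third array held the largest ratio in either direction for 13 of 26 genes (50%), against 56.8% of all, and the SD of the 26 ratios was 0.10, 0.12, 0.32 and 0.16 on the 4 arrays.

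**Figure D5:**
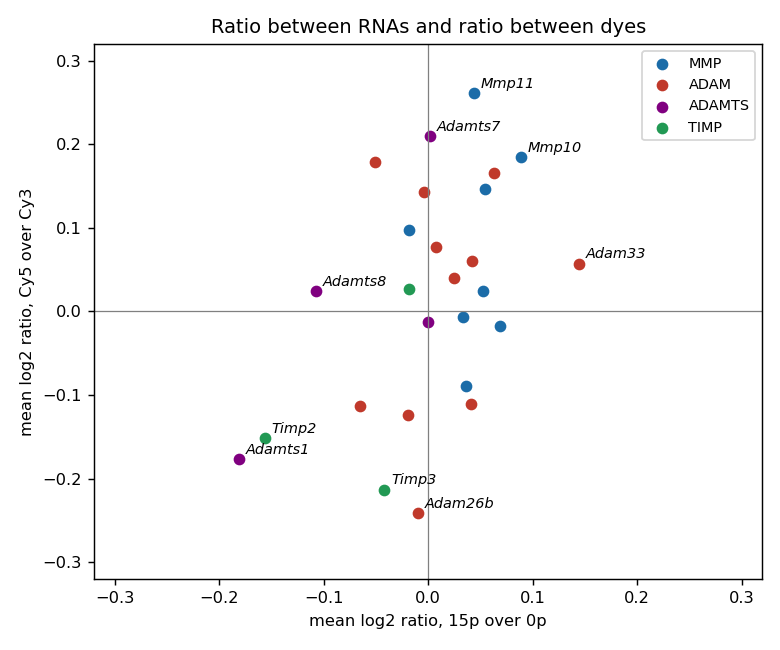
Mean log2 ratio of 15p over 0p RNA (x axis) against mean log2 ratio of Cy5 over Cy3 (y axis) for the 26 tested genes, each by its brightest kept probe, coloured by family. The ratios between dyes reach -0.24 and 0.26 and the ratios between RNAs -0.18 and 0.14, and Adam33 and Adamts8 have dye ratios of 0.057 and 0.024.

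Activators, cofactors and shed substrates of the families were examined as a list of 45 genes. Of these 37 were tested and 0 passed limma's test, with 23 mean ratios above 0, 14 below and a median of 0.018. Plg, the precursor of the Mmp activator plasmin, and Reck, a membrane-anchored Mmp inhibitor, were among the 8 not tested, with Pcsk5, Pcsk6, Tll2, Mep1a, Mep1b and Tspan10. The largest positive means were those of Sdc4, a shed cell-surface proteoglycan (0.16 ± 0.19), Pcsk7, a furin-related convertase (0.15 ± 0.035), Spint2, an inhibitor of membrane serine proteases (0.13 ± 0.13), and St14, the epidermal protease matriptase (0.11 ± 0.015; SD, n = 2 each). The largest negative means were those of the lysosomal protease Ctsl (-0.14 ± 0.16), of Areg, an EGF family ligand released by Adam17 (-0.14 ± 0.17), of Nrd1 (-0.064 ± 0.051) and of the collagen-cutting protease Ctsk (-0.053 ± 0.075; SD, n = 2 each). Areg had ratios of -0.45, -0.071, 0.47 and -0.51, so the third array lay opposite to the others. That array held the largest ratio, in either direction, of Sdc4 (0.53), Pcsk7 (0.43), Spint2 (0.59), St14 (0.22), Ctsl (-0.61) and Nrd1 (-0.16). It did not for Areg and Ctsk. Among the 37 tested genes it did so for 21 (56.8%), against 56.8% of all tested genes.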

How the data were processed

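Per the file headers, each deposited array file gives for every spot the mean intensity and the local background intensity of each dye, extracted with Agilent Feature Extraction 10.7.3.1. Processed intensity and the log10 ratio of Cy5 over Cy3 in the same deposited files were background-subtracted and dye-normalised by that software, per the file headers. Flags of 0 or 1 come from the same headers. In the deposited value table the log10 ratios are those of the arrays, not turned for the dye swap.

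In R 4.3.3 with limma 3.58.1 (the data.table package in version 1.17.8 read the files), mean intensities were corrected with normexp (offset 50) and loess within arrays, with control spots at weight 0 and irregular spots left out (3 spots of the families, and 0 were saturated). Spots of a probe were averaged. Probes had to be well above background in 15p RNA, or in 0p RNA, on every one of the 4 arrays, and a gene was represented by its brightest kept probe. Symbols were updated through RefSeq (GRCm38.p6), which matched 103 of the 105 probes. Log2 ratios were turned to 15p over 0p, averaged within a dye-swapped pair, and tested against 0 (lmFit and eBayes, two-sided, Benjamini-Hochberg adjusted over all 17374 genes, residual degrees of freedom 1, prior 8.89). SDs over 2 replicates do not cover how far the dye-swapped arrays of one replicate differ. Signals per RNA were taken after loess and Aquantile. All tested genes are named, with all arrays for the 6 highest, the 6 lowest and a set of well-known members, and for Mmp1b, Areg and second probes, which were chosen after their values were seen. The fit was run on simulated data with equal spread on all arrays and changes larger than any mean ratio given here. The third array of these data had a wider spread, so the simulation does not cover it. With 1 residual degree of freedom, the p-values of the fit lean on the estimated prior. The number of arrays limits the precision.

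The genes, lists, roles and tests were chosen with earlier results of these data known. The replicates were on different slides, which confounds replicate with slide: they cannot be told apart. Same-numbered arrays hold the same RNAs in exchanged dyes, per the labels. Across genes how far they deviated from the mean ratio of their orientation correlated at -0.26.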

Additional observations from a re-analysis of the deposited data

How the results depend on the processing

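None of the 26 genes was called with processed signals, without background subtraction, with an offset of 16, with median centring, with Aquantile, with the value table, with no filter or a filter in both RNAs, with the mean over probes, or with names as in the files. The replicate block with a dye term gave 0 called genes and a median log2 ratio of 0.0044, as reported, since it leaves the same residuals as the averaged pairs. Over all genes 1 was called with no filter, where the 78 genes of the families had a median of -0.0059. Replicate as a term on the ratio, and crossed replicate numbers, both added after seeing the data, each called 60 of all genes and 0 of the 26; these are the same fit, and its residual leaves out the spread of the ratio between replicates. With 1 array or replicate left out, the called genes numbered 0 to 4 of the 26 and 0 to 3120 of all, and the median was -0.0058 to 0.027. The highest numbers of called genes came without the first array (replicate 1, 15p in Cy5), with Timp2, Timp3, Adamts1 and Mmp10 called. The 3 remaining arrays have 1 residual degree of freedom, from those with 15p in Cy3. The third array, alone with 15p in Cy5, is fitted exactly and assumed to vary like the others. That fit holds no term for the replicate. The median was 0.029 with median centring, and the cause was not tested. Among single genes, 201 of 337 ratios under the other settings equal the reported ones, mostly because those settings cannot move them; of the 136 that differ, 5 changed sign (Adam12, Adam6b, Adam8, Adamts4 and Timp1) and 36 of 156 when an array or a replicate was left out. Without 1 replicate no test is possible, and only values were computed.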
